A study of Homo sapiens with 5 samples.

Results

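The genes described here are 37 genes of DNA damage repair and of the Fanconi anemia pathway, out of 20098 protein-coding genes on chromosomes 1 to 22 and X. They were taken from a written list and not from their binding, although earlier results of these data were known when the list was chosen. Binding was read from ChIP-Seq peak lists of 3 transcription factors (TFs), E2F1, MYC and Fra-1, made from LM2 cells, a lung-metastatic derivative of the human breast cancer line MDA-MB-231. There was 1 library per factor and no treatment is named for any of them, so all values lack a replicate spread and are a description of these libraries. The 5 samples also include an EZH2 library and the input DNA, for which no peak list was used here. RNA was not measured in these samples, so the values below say where a factor was found and not whether the gene responds to it.

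Cells meet DNA breaks, crosslinks and mispaired bases with separate but connected pathways. The kinases ATM and ATR sense damage and pass the signal to the checkpoint kinases CHEK1 and CHEK2, and the MRN complex (MRE11, RAD50 and NBN) holds broken ends. Homologous recombination copies the lost sequence from the sister chromatid and needs BRCA1, BRCA2, PALB2 and the recombinase paralogs. The Fanconi core complex attaches ubiquitin to FANCD2 and FANCI at crosslinks between the strands. Many of these genes are transcribed most in late G1 and S phase, and E2F factors are known regulators of genes of that period. Germline loss of BRCA1, BRCA2 or PALB2 predisposes to breast cancer.

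A gene was counted as bound where a peak overlapped, by at least 1 bp, a window from 2 kb upstream to 2.5 kb downstream of any of its annotated transcription start sites (TSSs). All 37 repair genes had an E2F1 peak in this window, against 61.2% of the 20061 other protein-coding genes. MYC peaks lay at 17 of the 37 genes (45.9%), against 17.8% of the others. Fra-1 peaks lay at 5 of the 37 genes (13.5%), close to the background of 13.2%. The shares of E2F1 and MYC were thus above the background, and that of Fra-1 was at it. This background holds all other protein-coding genes, whether or not they are transcribed in LM2 cells. A comparison with transcribed genes alone was not made.

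The 37 genes fell into 4 combinations. E2F1 alone was found at 17 genes (45.9%, against 35.8% of the others), namely CHEK2, MRE11, NBN, BARD1, BRIP1, PALB2, RAD51C, XRCC2, FANCB, FANCF, FANCG, FANCL, FANCM, FANCD2, EXO1, PARP1 and XRCC1. E2F1 with MYC was found at 15 genes, namely ATM, CHEK1, RAD50, BRCA2, RAD51D, XRCC3, RAD54L, FANCA, FANCC, FANCE, BLM, WRN, MSH6, PMS2 and UNG, which is 40.5% against 13.1% of the others. E2F1 with Fra-1 was found at BRCA1, RAD51B and RAD52, 8.11% against 7.67% of the others. All 3 factors were found at ATR and FANCI only, 5.41% of the repair genes against 4.67% of the others. No repair gene was without a peak, compared with 37.8% of the other genes.

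MYC was also more frequent here among genes that carry E2F1, since 29% of the other genes with an E2F1 promoter peak had a MYC promoter peak as well. The corresponding share for Fra-1 was 20.1%, which is above the 13.5% of the repair genes. The 3 peak lists differ in length, with 36933 peaks for E2F1, 17320 for Fra-1 and 4867 for MYC. With each list reduced to the 4867 peaks of largest −log10 q, 32 of the 37 repair genes (86.5%) still had an E2F1 peak, against 25.6% of the others. The 5 genes that lost it were BARD1, RAD51D, FANCF, WRN and PARP1. The repair genes also had more annotated TSSs than other genes, a median of 18 against 5, and a gene with many TSSs covers more sequence. With 1 canonical TSS per gene, the counts were again 37 for E2F1 and 17 for MYC, against 58.0% and 16.0% of the others.

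**Figure D1:**
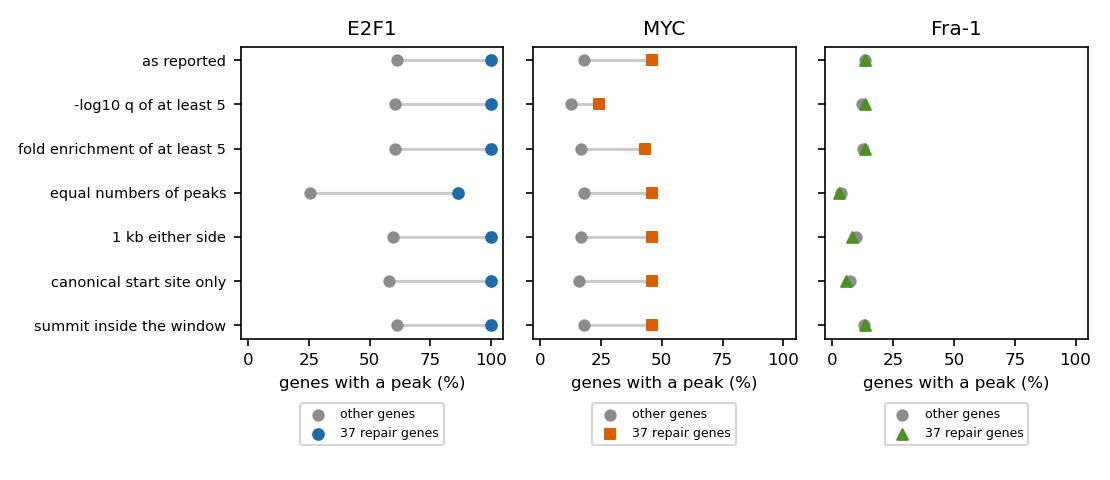
Share of the 37 repair genes (coloured) and of the other protein-coding genes (grey) with a promoter peak of E2F1, MYC or Fra-1, in percent, one row per way of counting. For E2F1 the coloured points sit at 86.5% or 100% and the grey ones between 25.6% and 61.2%, whereas the Fra-1 points of both sets stay together.

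The strength of a peak is given as its fold enrichment, the ratio of the fragment pileup at the summit to the local background from input DNA, and the best peak is the one with the largest fold enrichment in a gene's promoter windows. The best E2F1 peak of the repair genes had a median fold enrichment of 32.3 (from 15.6 to 67.6, n = 37), against 22 over the 12284 other genes with a peak. In total, 30 of the 37 genes lay above the median of the others. Placed by percentile among these other genes, 17 of the 37 were above the 75th percentile and 7 above the 90th. The peaks were also broader, with a median width of 985 bp against 615 bp, and had a median −log10 q of 96.0 against 55.2. The repair genes were therefore not spread evenly over the E2F1 range but were few at its lower end, where the lowest member stood at percentile 31.6.

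**Figure D2:**
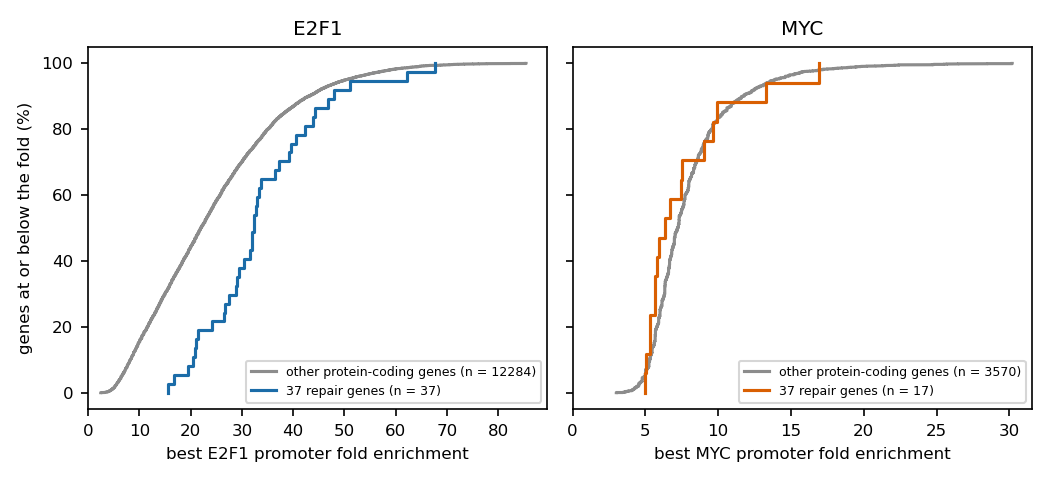
Cumulative share of genes (vertical axis, percent) at or below a given fold enrichment of the best promoter peak (horizontal axis), for E2F1 on the left and MYC on the right. The E2F1 curve of the 37 repair genes runs to the right of the other genes (medians 32.3 and 22), and for MYC the 17 repair genes run slightly to the left (medians 6.33 and 7.22).

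The 4 checkpoint kinases had E2F1 values between 30.5 and 36.4. ATM, the kinase activated by double-strand breaks, had a best E2F1 fold enrichment of 32.3, ATR, which answers stalled replication, had 36.4, and their respective substrates CHEK2 and CHEK1 had 31.9 and 30.5. MYC was at ATM (7.49), ATR (9.64) and CHEK1 (4.99), but not at CHEK2. Thus ATR, with a Fra-1 peak of 8.82 in addition, was the only one of the 4 with all 3 factors. The summits at ATR were close together, with MYC 12 bp and E2F1 40 bp downstream of the canonical TSS and Fra-1 106 bp upstream of it. In the MRN complex E2F1 was found at MRE11 (26.7), RAD50 (33.4) and NBN (24.1), and MYC only at RAD50 (5.69).

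The BRCA genes ranged from 20.8 to 67.6. BRCA2, which loads the recombinase on single-stranded DNA, had the strongest E2F1 peak of all 37 genes, with a fold enrichment of 67.6 at chr13:32889084-32890285 (hg19), which placed it at percentile 99.4. BRCA1, a ubiquitin ligase that acts upstream of it, had 43.8 at chr17:41277012-41277979. BARD1, the obligate partner of BRCA1 in that ligase, had 20.8, and PALB2, which links BRCA1 to BRCA2, had 21.1. BRIP1, a helicase that binds BRCA1, had 32.0, between PALB2 and BRCA1. MYC was found at BRCA2 alone among these 5 genes (6.66), with its summit 14 bp from that of E2F1.

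The recombinase paralogs and their partners ranged from 19.5 at XRCC2 to 62.2 at RAD54L, the translocase that remodels the recombinase filament. XRCC3 (44.2) and RAD51B (39.5) were in the upper part, followed by RAD52, an annealing protein (32.9), RAD51C (29.5) and RAD51D (26.5). MYC was found at RAD54L (9.92), XRCC3 (6.33) and RAD51D (5.01). At RAD54L the E2F1 and MYC summits were 23 bp apart, in the region just upstream of the canonical TSS.

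In the Fanconi core complex the median E2F1 fold enrichment was 30.5 over 8 genes. FANCG had the strongest peak (46.7), followed by FANCA (37.2), the ubiquitin ligase subunit FANCL (33.8), FANCB (32.3), FANCE (28.8), FANCC (27.5) and FANCM, the DNA-binding translocase of the complex (21.4). FANCF was the lowest with 16.7. MYC was found at FANCE (7.47), FANCC (5.91) and FANCA (5.34), and Fra-1 at none of the 8. The substrates of the complex, FANCD2 and FANCI, had nearly the same E2F1 values, 40.6 and 39.1, but FANCI also had MYC (9.02) and Fra-1 (6.80) peaks whereas FANCD2 had neither.

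The remaining genes belong to helicases, mismatch repair and base excision. The helicase BLM, which dissolves recombination intermediates, had an E2F1 value of 42.4 and a MYC value of 5.82, and the related helicase WRN had 20.4 and 5.34. For MSH6, which recognises mismatches, these were 47.9 and 5.67, and for PMS2, which nicks the strand to be repaired, 32.7 and 16.9. The nuclease EXO1 had E2F1 only (31.5). UNG, which removes uracil from DNA, had 51.1 for E2F1 and 13.3 for MYC. By contrast, PARP1, the sensor of single-strand breaks, had the lowest E2F1 value of the 37 (15.6) and its scaffold partner XRCC1 had 29.1, both without MYC. PMS2 and UNG therefore held the strongest MYC peaks of the list, whereas the other 15 genes with MYC were at 9.92 or less.

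**Figure D3:**
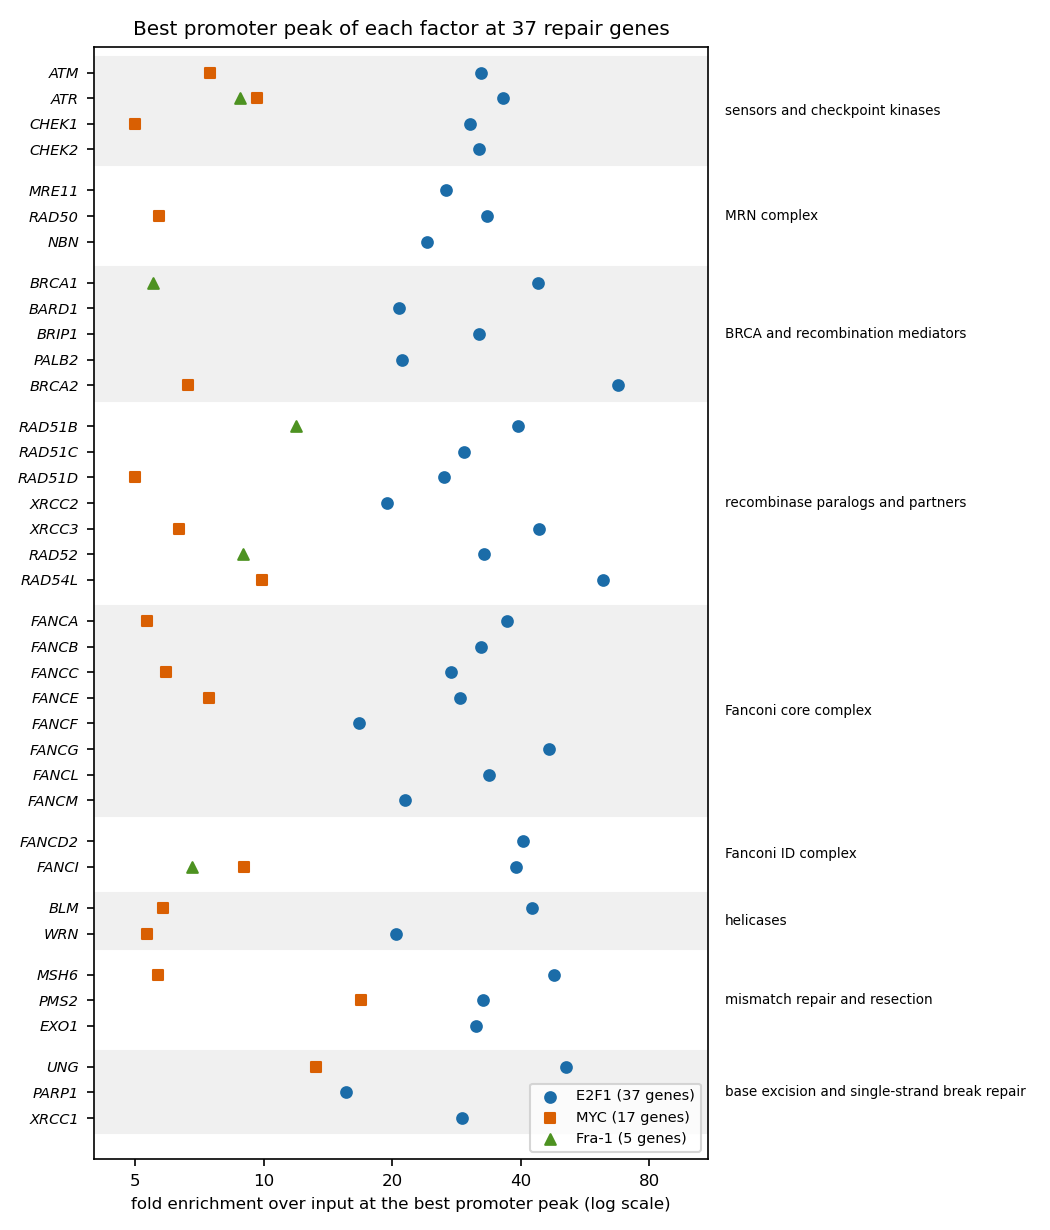
Fold enrichment over input at the best promoter peak (log scale) of E2F1 (circles), MYC (squares) and Fra-1 (triangles) for each of the 37 repair genes, grouped by role. E2F1 is present in every row, from 15.6 at PARP1 to 67.6 at BRCA2, and the MYC and Fra-1 marks lie to its left in every row that has them, although fold enrichment is only roughly comparable between libraries of different depth.

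The best E2F1 summits were close to a TSS. The median distance to the nearest TSS of the same gene was 16 bp, against 91 bp for the other genes, and 30 of 37 summits (81.1%) were within 100 bp, against 52.1%. Because the repair genes have many annotated TSSs, the distance to the canonical TSS was taken as well. It was 53 bp against 170 bp, with 25 of 37 summits (67.6%) within 100 bp against 39.4%. Relative to the canonical transcript, 16 summits lay in a UTR exon, 13 outside the transcript, 4 in a coding exon and 4 in an intron.

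A few summits were away from the canonical TSS. The best E2F1 peak of FANCM had its summit 1215 bp upstream, and a second peak with a fold enrichment of 19.2 had its summit 82 bp downstream of the TSS. The summit at CHEK1 lay 786 bp downstream of the canonical TSS but 25 bp upstream of another annotated one. At PARP1 the summit was 503 bp downstream and at ATM 451 bp upstream. The summits at FANCM and ATM lay on the side of a neighbouring gene, described next.

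Several repair genes share their promoter region with a gene on the opposite strand. A protein-coding gene whose canonical TSS was within 1 kb on the opposite strand was found for 14 of the 37 genes (37.8%), against 13.9% of the other genes and 20.1% of the others with an E2F1 promoter peak. The pairs were ATM with NPAT, CHEK2 with HSCB, MRE11 with ANKRD49, RAD50 with IL5, PALB2 with DCTN5, BRCA2 with ZAR1L, RAD51C with IGBP1C and TEX14, XRCC3 with ZFYVE21, FANCB with MOSPD2, FANCF with GAS2, FANCM with FKBP3, WRN with PURG, PMS2 with AIMP2 and XRCC1 with PINLYP. With long noncoding RNA genes counted as well, 21 of the 37 genes (56.8%) had a partner, against 27.9% of the other genes. CHEK1, BRCA1, BARD1, FANCL, FANCD2, BLM and EXO1 had only a noncoding partner, so they also share their promoter region. They count below as genes without a coding partner. All 14 genes with a coding partner had E2F1, 6 had MYC (42.9%) and none had Fra-1. Of the 23 genes without one, 11 had MYC (47.8%) and 5 had Fra-1. In the other genes E2F1 was at 89.8% of those with a coding partner and 57.5% of those without, MYC at 37% and 14.9%, and Fra-1 at 13.9% and 13.3%. The median best E2F1 fold enrichment of genes with a coding partner was 30.7 in the repair genes and 27.9 in the others. Without one it was 33.8 and 20.5, so the higher E2F1 strength of the repair genes was seen mainly there. The share with MYC was thus close in repair and other genes with a coding partner (42.9% against 37%). It differed in those without (47.8% against 14.9%). These shares rest on 14 and 23 repair genes, and whether a shared promoter bears on them was not tested.

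In most pairs the best E2F1 summit was nearer to the repair gene. A TSS of another protein-coding gene was nearer to it for 4 of the 37 genes, namely ATM, FANCF, FANCM and XRCC1. At ATM the summit was 0 bp from a TSS of NPAT, a coactivator of histone genes, and 428 bp from one of ATM. At FANCF it was 49 bp from a TSS of GAS2 and 132 bp from that of FANCF, and at XRCC1 90 bp from PINLYP and 148 bp from XRCC1. The MYC summit at PMS2 was 129 bp from a TSS of AIMP2, a component of the tRNA synthetase complex, and 315 bp from one of PMS2. The assignment of these peaks to the repair gene rests on the window and cannot be told apart from an assignment to the neighbour. The same limit holds where a broad peak covers the TSSs of both genes. At BRCA2 the E2F1 summit was 50 bp from a TSS of BRCA2 and 92 bp from one of ZAR1L, in a peak of 1202 bp. At ATM the MYC summit stood apart from that of E2F1, 21 bp upstream of a TSS of ATM itself.

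**Figure D4:**
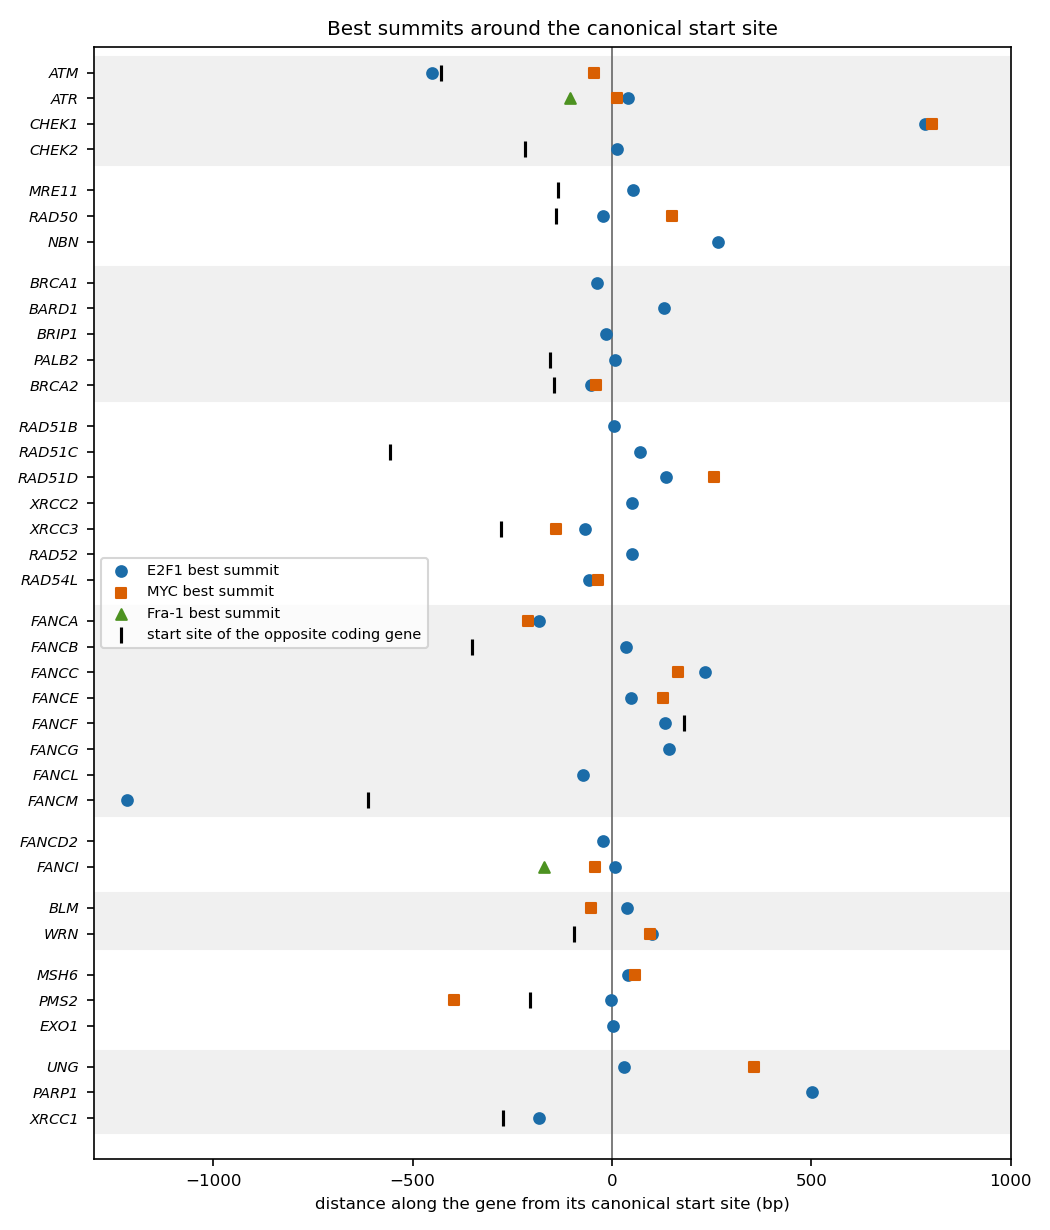
Position of the best E2F1, MYC and Fra-1 summits along each gene, in bp from its canonical TSS (vertical line at 0, negative is upstream), with black bars for the canonical TSS of a protein-coding gene on the opposite strand within 1 kb (IGBP1C for RAD51C). Fra-1 summits of BRCA1, RAD51B and RAD52 lie beyond the axis. Most E2F1 circles are within 100 bp of 0 (25 of 37), and those of ATM and FANCM lie at or beyond the neighbour's TSS.

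MYC and E2F1 summits were near each other. Each of the 17 best MYC peaks overlapped an E2F1 peak, as did 98.2% of those of the other genes. The best summits were a median of 69 bp apart (from 5 bp at WRN to 407 bp at ATM), with 12 of 17 within 100 bp. For the 3561 other genes with both factors the median was 118 bp and 46.6% were within 100 bp. The best E2F1 fold enrichment had a median of 36.4 at the 17 repair genes with MYC and 30.5 at the 20 without. The corresponding medians in the other genes were 32.1 and 18.4. The repair genes without MYC therefore had E2F1 values near those of other genes with MYC.

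The MYC peaks themselves were not strong. Their median fold enrichment was 6.33 (from 4.99 to 16.9, n = 17), against 7.22 for the 3570 other genes, and 7 of 17 were above that median. A −log10 q under 5 was found for 8 of the 17 genes (47.1%), against 29.1% of the others. Leaving these weak peaks out, MYC was found at 9 repair genes (24.3%, against 12.7% of the others), namely ATM, ATR, CHEK1, BRCA2, RAD54L, FANCE, FANCI, PMS2 and UNG. The number of repair genes with MYC therefore depends on where the threshold is set, and lay above the background with either one.

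Of the 5 genes with Fra-1 peaks, ATR and FANCI had them near the canonical TSS. At FANCI the Fra-1 summit was 169 bp upstream of it and the MYC and E2F1 summits were 42 bp upstream and 7 bp downstream. The other 3 peaks were counted through distant alternative TSSs. The Fra-1 peak of BRCA1 (5.52, chr17:41324060-41324333) lay 46765 bp upstream of the canonical TSS and 886 bp from a TSS of NBR1, a gene named here after its position was seen. That of RAD52 (8.93) was in an intron 35134 bp downstream, and the stronger of a pair of peaks at RAD51B (11.9, chr14:69014366-69014529) was 727945 bp downstream. With canonical TSSs only, Fra-1 was found at 2 repair genes, 5.41% against 7.30% of the others. The best Fra-1 peak of each of the 5 genes overlapped an E2F1 peak, as did 79.5% of those of the other genes, with the nearest E2F1 summit 17 bp away at RAD52, 19 bp at BRCA1, 69 bp at RAD51B, 146 bp at ATR and 176 bp at FANCI. None of the 5 best Fra-1 summits was within 100 bp of a TSS, against 25.3% of the other genes with Fra-1. The summit at ATR was just beyond this limit, at 106 bp, and 5 genes are too few to call this a difference.

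For the genes without a promoter peak the nearest peak was mostly far away. The distance to the nearest Fra-1 peak had a median of 60583 bp over 32 genes and exceeded 10000 bp for 30 of them, with the shortest, 6426 bp, at XRCC3. The nearest MYC peak was at a median of 321168 bp over 20 genes and exceeded 10000 bp for 19 of them, the exception being CHEK2 with 9280 bp. A window wider by a few kb would thus have added few genes, and a peak below the threshold of the lists cannot be seen here. The same distances are not given for the other genes, so they cannot be read as particular to the repair genes.

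Within the gene bodies, outside all promoter windows, Fra-1 peaks were found in 4 repair genes (10.8%, against 15.9% of the others), E2F1 peaks in 3 (8.11%, against 13.8%) and MYC peaks in none (against 1.42%). The repair genes were longer than other genes, with a median of 75.6 kb against 27.1 kb, so that peaks were also counted per 100 kb. This gave 0.398 against 0.484 for Fra-1 and 0.451 against 0.437 for E2F1. RAD51B, which spans 910 kb, held 11 of the 15 Fra-1 and 14 of the 17 E2F1 peaks. FANCC held 2 of each, BRIP1 and BLM 1 Fra-1 peak each, and RAD52 1 E2F1 peak. The strongest Fra-1 peak in RAD51B had a fold enrichment of 14.8 and lay 884 kb downstream of the canonical TSS, beyond the end of the canonical transcript. Of the 15 Fra-1 peaks 8 overlapped an E2F1 peak (53.3%, against 56.8% in the other genes), and 6 had an AP-1 motif (40% against 53.9%).

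The letters under the summits were then searched on both strands within 50 bp of each best summit. The E2F motif was taken as TTTCCCGC, TTTCGCGC, TTTGCCGC or TTTGGCGC. It was found at 8 of the 37 E2F1 summits (21.6%), against 434 of 12284 (3.53%) in the other genes. The shorter core, which lacks the first T, was found at 16 of 37 (43.2%) against 11.8%, and 5 of these 16 were Fanconi core genes (FANCA, FANCB, FANCE, FANCG and FANCL). The longer motif was at CHEK1, RAD51C, XRCC2, FANCA, FANCG, FANCD2, MSH6 and EXO1, and none of the MRN genes had either form. The same letters in reversed order, which were counted after these shares had been seen, were at 1 of 37 summits (2.70%) and at 1.86% of the others. The median GC content within 500 bp of the TSS was 59.5% in the repair genes and 63.4% in the other genes with E2F1. The median ratio of observed to expected CpG was 0.790 and 0.782. Whether base composition bears on the share of the motif was not tested.

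Among the repair genes, peak strength was slightly higher with the E2F motif, and 8 genes are too few to describe a relation. The 8 genes with it had a median fold enrichment of 34.4 (from 19.5 to 47.9), and the 29 without had 32.3 (from 15.6 to 67.6), which included BRCA2 and RAD54L. In the other genes the medians were 29 with the motif and 21.8 without. In the 300 bases around the canonical TSS, from 250 upstream to 50 downstream, 7 of the 37 genes (18.9%) had the motif, against 4.35% of the others. These were XRCC2, FANCA, FANCC, FANCD2, MSH6, PMS2 and EXO1.

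The 8 E2F motifs follow because the motif was more frequent at the E2F1 summits of the repair genes than at those of the other genes. Each is shown in 30 bases of the gene's own strand, 5′ to 3′, with the motif in capitals (hg19). The positions are chr11:125495844-125495873 for CHEK1, chr17:56770041-56770070 for RAD51C, chr7:152373187-152373216 for XRCC2, chr16:89883209-89883238 for FANCA, chr9:35079785-35079814 for FANCG, chr3:10068108-10068137 for FANCD2, chr2:48010276-48010305 for MSH6 and chr1:242011499-242011528 for EXO1. XRCC2, FANCA and FANCG are on the minus strand.
CHEK1: ctcaagttttgGCGGGAAAagcgctgcatt
RAD51C: gatttggtgagTTTCCCGCtgtctccagcg
XRCC2: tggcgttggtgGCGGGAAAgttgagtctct
FANCA: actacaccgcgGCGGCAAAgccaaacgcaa
FANCG: tcctccccgagTTTCCCGCgggaactaact
FANCD2: cgtcgggcctgGCGGGAAAgtcgaaaacta
MSH6: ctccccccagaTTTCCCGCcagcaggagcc
EXO1: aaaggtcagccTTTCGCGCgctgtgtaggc

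Of these 8, 6 carried TTTCCCGC or its complement GCGGGAAA, while FANCA had GCGGCAAA and EXO1 TTTCGCGC. Measured from its centre, the motif was 3 bp from the E2F1 summit at FANCG, where the summit lies inside it, and 34 bp at MSH6, the nearest and the farthest of the 8. The centre of the motif was 2 bp downstream of the canonical TSS at FANCD2, where the motif spans the TSS, 7 bp downstream at MSH6, 8 bp at EXO1 and 24 bp at XRCC2. XRCC2 and FANCD2 shared a run of 12 letters (TGGCGGGAAAGT) around the motif.

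The E-box CACGTG, which MYC binds with its partner MAX, was found at 3 of the 17 MYC summits (17.6%), against 18.3% in the other genes. It was thus as frequent as in other MYC-bound promoters. The 3 genes were BRCA2 (chr13:32889585-32889614), PMS2 (chr7:6049109-6049138, minus strand) and UNG (chr12:109535733-109535762), shown with the E-box in capitals since they include both genes with the strongest MYC peaks.
BRCA2: gcgtcacggcgtCACGTGgccagcgcgggc
PMS2: cgctcctacctgCACGTGgccagcgcccgg
UNG: ccaaatagcctcCACGTGttcaaaatagcc

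The E-boxes of BRCA2 and PMS2 were part of the same run of 14 letters (CACGTGGCCAGCGC). The centre of the E-box was 6 bp from the MYC summit at BRCA2, 10 bp at UNG and 48 bp at PMS2. The other 14 MYC summits, including those of RAD54L, ATR and FANCI, had no CACGTG within 50 bp, which says nothing about other sequences that MYC can bind.

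AP-1 is the dimer that Fra-1 forms with a JUN protein, and its motif was taken as TGACTCA or TGAGTCA. It was found at 2 of the 5 Fra-1 promoter summits (40%, against 50.4% in the other genes), BRCA1 (chr17:41324111-41324140, minus strand) and RAD51B (chr14:69014403-69014432), shown here with the motif in capitals because both lie far from the canonical TSS.
BRCA1: agtccatgccacTGACTCAcctttgcttgg
RAD51B: tgagcaggtcaTGAGTCAccaagcctcttt

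The Fra-1 peaks near the canonical TSSs of ATR and FANCI had no AP-1 motif. No repair gene had one in the 300 bases around the canonical TSS, where 3.58% of the other genes did.

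**Figure D5:**
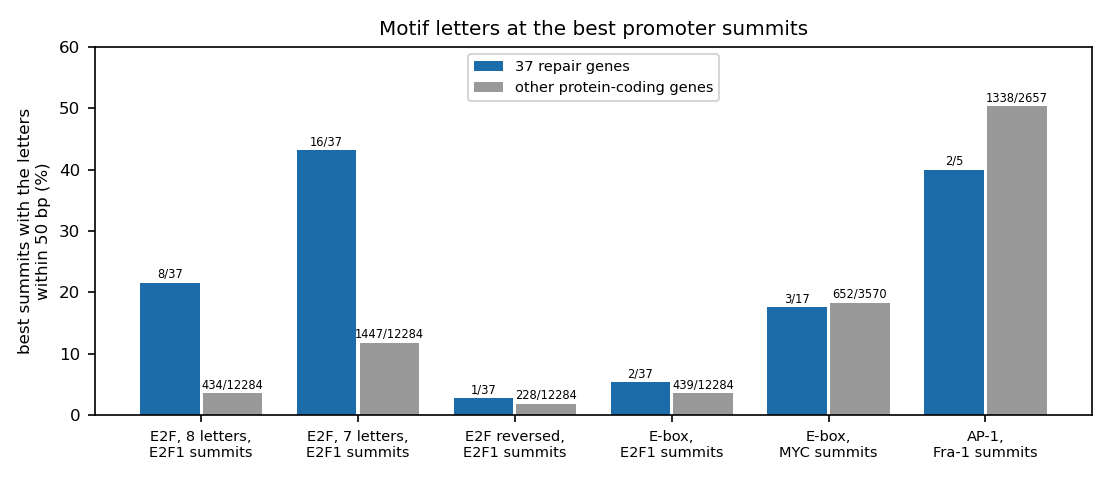
Share of best promoter summits with the motif letters within 50 bp (vertical axis, percent) for the repair genes (blue) and the other protein-coding genes (grey), with the counts above the bars. The E2F letters are at 21.6% against 3.53% of E2F1 summits, and the E-box at 17.6% against 18.3% of MYC summits.

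A further 59 genes of DNA repair, listed for comparison, had similar shares of E2F1 and MYC and a higher share with all 3 factors. E2F1 was found at 58 of them (98.3%), the exception being MDC1, with a median fold enrichment of 29.7. MYC was found at 29 (49.2%) and Fra-1 at 12 (20.3%). All 3 factors were at 10 of the 59 genes (16.9%, against 5.41% of the 37 genes and 4.67% of the genes outside the 37), which were LIG1, NHEJ1, RNF168, ERCC1, ERCC5, FAN1, FAAP100, NTHL1, TIPIN and RAD9A. The high share of E2F1 and the share of MYC near 50% were thus found in repair genes beyond the 37.

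The tags left after filtering numbered 18056168 for E2F1, 23853621 for MYC, 12931227 for Fra-1 and 10758036 for the input, and the Fra-1 list comes from the shallowest of the factor libraries. E2F1 peaks were at most promoters, and at the E2F1 summits of the other genes the E2F motif was found at 3.53%, the E-box at 3.57% and the AP-1 motif at 3.15%. These motifs differ in length and in the number of spellings, so these shares are not on one scale. PMS2, CHEK2, FANCD2 and BRCA1 have partial copies elsewhere in the genome, and because only uniquely mapping reads were kept, the values of these genes are less certain.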

How the data were processed

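Reads had been trimmed by the authors (Trimmomatic 0.27), mapped to masked hg19 with Bowtie 0.12.5, and reduced to unique ones. Peaks of each library were called by MACS2 (2.0.10.20120913) with 1 input for all, keeping q-values up to 0.01. The deposited signal is the pileup at the summit. The deposited fold enrichment is the ratio of this to local background, with a pseudocount of 1, and the authors gave each p- and q-value as its −log10. Samples were grouped by antibody. Start sites came from GENCODE 44 mapped to GRCh37, the build of the lists, and the canonical TSS is the one so tagged. Sequences were read from that genome.

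The 37 genes, all of which are named, the list of 59 and the measures were chosen with earlier results of these data known. Without replicates no test was made. Procedures were tested on simulated data. Alternatives were other peak thresholds, equal numbers of peaks, other windows and TSSs, another choice of best peak, and other motif windows or letters. Python 3.11.15, numpy 2.4.6, pandas 2.3.3, pysam 0.24.0 and matplotlib 3.10.9 were used.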

Additional observations from a re-analysis of the deposited data

How the results depend on the processing

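Of 78 recomputed values, 69 stayed within 1.5 times the reported count or within the 95% interval of the reported median. This interval is over the listed genes and not over libraries, so it measures no replicate spread. With a −log10 q of at least 5, the MYC median fold enrichment was 9.02, against 6.33 reported. The median MYC summit distance was then 21 bp, against 53 bp, and both were counted as unchanged. For Fra-1 the reported medians rest on 5 genes, so this interval was too wide to show a change. The median Fra-1 summit distance of 362 bp was counted as unchanged at 2162 bp with equal numbers of peaks. The same held at 135 bp with windows of 1 kb and at 138 bp with canonical TSSs. The number of repair genes with MYC was 9 with a −log10 q of at least 5. Genes with Fra-1 numbered 1 with equal numbers of peaks, 3 with windows of 1 kb either side of a TSS and 2 with canonical TSSs, and genes with all 3 factors numbered 0 with equal numbers of peaks. With canonical TSSs the median summit distance was 53 bp for E2F1 and 128 bp for MYC. Fra-1 peaks in gene bodies were in 1 gene with equal numbers of peaks, and the 7-letter E2F core was at 16 summits. By construction these settings use fewer peaks, smaller windows, fewer TSSs or fewer motif letters. No paired analysis was possible because each factor had 1 library, and for the same reason no replicate could be left out. Peaks below the authors' cutoff, most likely in the shallower Fra-1 and weaker MYC lists, cannot be counted as absent binding.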
